A study of Mus musculus with 116 samples.

Results

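Caveolae genes were described here: the 6 genes Cav1, Cav2, Cavin1, Cavin2, Cavin3 and Ehd2, taken by symbol from the 40202 gene symbols of the count files. All 6 symbols were found in the files, and 5 of the 6 had at least 1 count in some library. The study measured RNA in 116 libraries of 2 mouse cell lines prepared by nanoSPLITS, a method that divides the lysate of 1 or a few cells in a nanodroplet between RNA sequencing and protein measurement. The labels call C10 alveolar type II epithelium and SVEC endothelium. An input series of C10 held 8 libraries made from 1 cell, 6 made from 3 cells and 6 made from 10 cells. A separate set held 48 single C10 cells and 48 single SVEC cells. All cells were untreated and grown under standard culture, and no genotype or batch is named in the labels. The labels do not say whether libraries of a group came from separate cultures, so p-values measure only the spread between these libraries.

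Caveolae are flask-shaped pits of the plasma membrane. Caveolin-1, from Cav1, inserts into the inner leaflet as oligomers that form the coat, and caveolin-2, from Cav2, joins it in mixed oligomers. The cavins are peripheral proteins that assemble on this coat: Cavin1 is required for the pit to form, while Cavin2 and Cavin3 join it as further subunits. Ehd2 is an ATPase that sits as a ring at the neck and holds the pit at the surface. Caveolae are known to be abundant in endothelium and in the flattened type I cells of the alveolus, and sparse in type II cells.

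Total counts per library ran from 430798 to 15385625 in the input series, from 83188 to 5911755 in the 46 C10 single cells used, and from 5122 to 2831907 in SVEC. A pair of C10 single-cell libraries with under 1000 counts was left out, and neither held a count of a caveolae gene. The labelled cell types were checked against markers. In SVEC, Kdr, Tie1, Emcn, Vwf, Cldn5, Robo4, Esam and Icam2, 8 of 16 endothelial markers, had no count in any of 48 libraries. The other 8 were read in 1 to 8 libraries each, with Flt1 in 8 (up to 138 CPM), Ecscr in 5 (up to 343 CPM), Pecam1 in 5 and Cdh5 in 1. In C10 single cells none was found for Sftpd, Sftpc, Sftpb and Sftpa1, which encode surfactant proteins, or for the phosphate transporter gene Slc34a2, nor for the type I genes Ager, Aqp5 and Akap5. Other markers of those lists were read. Of type II genes, Etv5 was read in 24 of 46 C10 libraries (median 0.18 CPM) and Abca3 in 14 (up to 128 CPM). Lamp3 was read in 10 (up to 0.96 CPM), and of type I genes Pdpn was read in 45. Of 8 general epithelial genes, Krt8, Cldn4, Cldn7 and Nkx2-1 had no count in C10 single cells. Cdh1 was read in 24 (median 0.20 CPM), Krt18 in 3, Epcam in 1 and Krt19 in 1. Summed levels of the fibroblast and smooth muscle list were 2326 to 13294 CPM in C10 and 615 to 8616 CPM in SVEC. In C10 the highest medians of the list were those of Vim (1987 CPM), S100a4 (1756 CPM) and Acta2 (1139 CPM). Tagln and Thy1 had no count in C10 single cells. Pdgfrb was read in 4, Col1a2 in 6 and Pdgfra in 9 of 46 C10 libraries.

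Levels below are in CPM, the counts of a gene per 1000000 counts of its library. Cav1, the main coat protein gene, was read in all but 2 of the 46 C10 single cells, with a lowest value of 0, a median of 884 and a highest of 2955 CPM. In SVEC it was read in 36 of 48 libraries, with values of 0, 557 and 2398 CPM in the same order. The lines overlapped over almost the whole range. Values left a gap above 0, since the lowest value in a library with Cav1 counts was 156 CPM in C10 and 134 CPM in SVEC.

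Of the 12 SVEC libraries without a Cav1 count, 9 held at least 100000 counts, and their totals ran from 5122 to 891961. Totals of the SVEC libraries with Cav1 overlapped these, from 6591 to 2831907. Libraries without Cav1 were shallower by median, at 269130 counts and 2977.5 genes detected, against 520978 counts and 4651 genes with Cav1. Of the 12, 7 had counts of Cavin1 and 7 had counts of Cavin3. After every library of at least 100000 counts was thinned to that number, 43 of 45 C10 libraries (95.6%, Wilson 95% interval 85.2 to 98.8%) and 33 of 42 SVEC libraries (78.6%, 64.1 to 88.3%) held Cav1. These intervals treat libraries as independent draws and cover only the sampling of libraries. Reads carried no molecular identifiers, so counts are of reads and not of molecules.

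Cav2, the partner caveolin gene, was read less evenly. It was read in 33 of 46 C10 single cells, with a median of 106 and a highest value of 970 CPM, and in 24 of 48 SVEC cells, with a median of 11.1 and a highest value of 1585 CPM. In C10 no library had Cav2 without Cav1, but only 2 of 46 libraries lacked Cav1, so this number could be at most 2. In SVEC, 1 of the 12 libraries without Cav1 held Cav2, beside 23 of the 36 with Cav1. Cav1 was read without Cav2 in 11 C10 and 13 SVEC libraries. The SVEC library with Cav2 and no Cav1, library 14, held the highest Cav2 value of the line and no Cavin1 count, in a total of 266848.

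Cavin1, the cavin that caveolae need, was read in every one of the 46 C10 single cells, from 20.4 CPM through a median of 205 to 857 CPM. In SVEC it was read in 36 of 48 libraries, from 0 through a median of 74.3 to 423 CPM. The C10 values lay higher as a group, but the ranges overlapped. Both Cav1 and Cavin1 were read in 44 of 46 C10 libraries. In SVEC both were read in 29 libraries, only Cav1 in 7, only Cavin1 in 7 and neither in 5. Of the 12 SVEC libraries without Cavin1, 7 held at least 100000 counts. Their median total was 165503, against 536965 in SVEC libraries with Cavin1. Thinning to 100000 counts left Cavin1 in 97.8% of 45 C10 and 76.2% of 42 SVEC libraries.

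Cavin2 had no count in any of the 116 libraries. Over their 341908703 summed counts, 3 counts make up 8.77e-07%. SVEC supplied 29017802 of these counts, of which 3 counts make up 1.03e-05%. In an SVEC library of median total, 3 counts stand for 6.90 CPM. These shares describe how deeply the libraries were read. They set no upper limit on Cavin2 RNA in the cells, since counts are of reads and not of molecules. The older symbol of Cavin2 is Sdpr. In RefSeq its span overlaps the noncoding gene 9330175M20Rik, and in GENCODE M21 it shares no exon bases with other genes. The annotation behind the counts is not given in the sources used here, and its part in the missing Cavin2 counts was not tested.

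Cavin3, a cavin first known as a binding protein of protein kinase C delta, was read in 45 of 46 C10 single cells, from 0 through a median of 77.1 to 312 CPM. In SVEC it was read in 37 of 48 libraries, with a median of 28.8 CPM. The highest SVEC value, 2731 CPM, was library 20, where it stood for 18 counts in a total of 6591, and the next was 284 CPM. Thinned to 100000 counts, 95.6% of C10 and 71.4% of SVEC libraries held Cavin3. In GENCODE M21, 374 of the 1662 exon bases of Cavin3 (22.5%) are shared with Gm45667, which is not a symbol in the files.

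Ehd2, the neck ATPase gene, was the lowest of the 5 genes read. It had counts in 22 of 46 C10 single cells, with values up to 112 CPM, and in 13 of 48 SVEC cells, with values up to 202 CPM, and the median was 0 in both lines. Thinned to 100000 counts, the shares were 40.0% and 28.6%, and their Wilson intervals of 27.0 to 54.5% and 17.2 to 43.6% overlapped. At this depth a difference between the lines in Ehd2 detection was not shown.

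**Figure D1:**
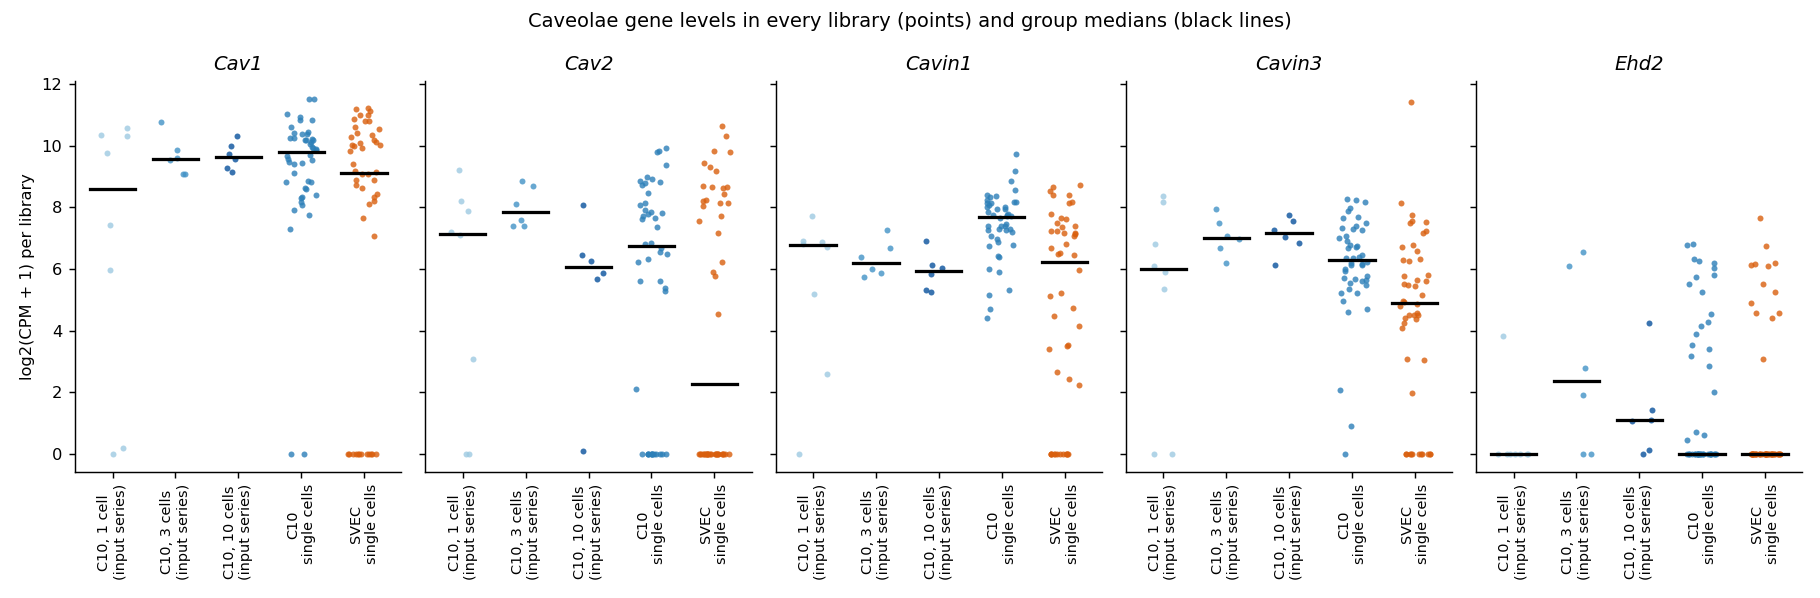
Levels of the 5 caveolae genes with counts, as log2(CPM + 1), in every library used; points are libraries, black lines are group medians, and points at 0 had no count. In single cells, Cav1 forms a band above 7 on this scale apart from libraries at 0, Cavin1 is read in all 46 C10 single cells, and Ehd2 has a median of 0 in both single-cell groups.

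Levels were compared between the genes as CPM per kilobase of exon in GENCODE M21, since the files give no lengths. Cav1 stood first in all 5 groups, with medians of 257 CPM per kilobase in C10 single cells and 162 in SVEC. It exceeded Cavin1, second by median in both lines, in 44 of 46 C10 libraries and in 36 of 48 SVEC libraries, with 7 the other way. The middle of the order was not separated: Cavin1 exceeded Cavin3 in 26 C10 libraries and was below it in 20, and in SVEC the numbers were 20 and 23. Cavin3 and Cav2 were also mixed, 25 against 20 in C10 and 19 against 20 in SVEC. Ehd2 was the last by median of the 5 genes read, in every group.

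The bases upstream of the start sites were read next, as a description of sequence. They come from a promoter table of RefSeq (GRCm38.p6) that was matched for 5 of the 6 genes (all but Cavin3). Each run below is the 250 bases before the outermost listed start, 5′ to 3′ on the gene's own strand. Cav1 is at chr6:17306085-17306334 (+), Cav2 at chr6:17280935-17281184 (+), Cavin1 at chr11:100970618-100970867 (-) and Cavin2 at chr1:51288876-51289125 (+). Cav1 and Cav2 are each other's nearest coding neighbour. Capitals mark any of 5 motifs searched on both strands: the GC box, the CCAAT box, the AP-1 site, the TATA box and the TEAD site, with letters given beside each count.
Cav1: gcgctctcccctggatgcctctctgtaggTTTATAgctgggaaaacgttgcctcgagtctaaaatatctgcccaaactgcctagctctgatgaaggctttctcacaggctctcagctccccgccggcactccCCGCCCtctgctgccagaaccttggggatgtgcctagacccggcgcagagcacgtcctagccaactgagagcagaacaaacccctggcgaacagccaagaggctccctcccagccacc
Cav2: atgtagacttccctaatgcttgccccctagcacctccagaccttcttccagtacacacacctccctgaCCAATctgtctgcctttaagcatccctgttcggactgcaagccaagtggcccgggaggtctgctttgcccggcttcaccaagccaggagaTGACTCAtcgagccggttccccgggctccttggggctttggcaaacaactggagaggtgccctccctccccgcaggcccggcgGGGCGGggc
Cavin1: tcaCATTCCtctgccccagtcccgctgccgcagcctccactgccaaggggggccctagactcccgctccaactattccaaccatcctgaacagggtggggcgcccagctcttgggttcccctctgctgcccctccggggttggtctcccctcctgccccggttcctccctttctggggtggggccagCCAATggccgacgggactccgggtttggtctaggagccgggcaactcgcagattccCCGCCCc
Cavin2: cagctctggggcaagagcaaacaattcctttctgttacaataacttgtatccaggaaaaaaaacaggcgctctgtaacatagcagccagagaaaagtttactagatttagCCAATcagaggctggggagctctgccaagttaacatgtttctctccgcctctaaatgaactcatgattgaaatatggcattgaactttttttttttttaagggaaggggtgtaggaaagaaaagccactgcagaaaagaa

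The GC box, searched as GGGCGG, occurs once each in the Cav1, Cav2 and Cavin1 runs and also in that of Ehd2, and not in that of Cavin2; 32.7% of the 32851 promoter entries hold it in the same window. The CCAAT box is in the runs of Cav2, Cavin1, Cavin2 and Ehd2 and in 33.8% of all entries. The letters of an AP-1 site, TGANTCA, occur among these 5 runs only in that of Cav2, and in 6.75% of all entries. For the TATA box, TATAAA was searched and found on the reverse strand of the Cav1 run alone, against 12.4% of all entries. The TEAD site, GGAATG, was found on the reverse strand of the Cavin1 run alone, against 12.6% of all. No 2 of these motifs overlap in the printed runs. G and C made up 59.6% of the bases for Cav1, 62.0% for Cav2, 67.6% for Cavin1, 58.0% for Ehd2 and 40.4% for Cavin2, against a median of 52.4% over all entries. CpG dinucleotides numbered 10, 10, 12, 12 and 2 in the same order, against a median of 6. Cavin2 stood at the 12.5th percentile for G and C and the 18.8th for CpG, with the other 4 above the median on both. Matches to letters are descriptions of sequence, and the data hold no binding or methylation measurement at these sites. Any link of upstream sequence or base composition to the missing Cavin2 counts was not tested.

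**Figure D2:**
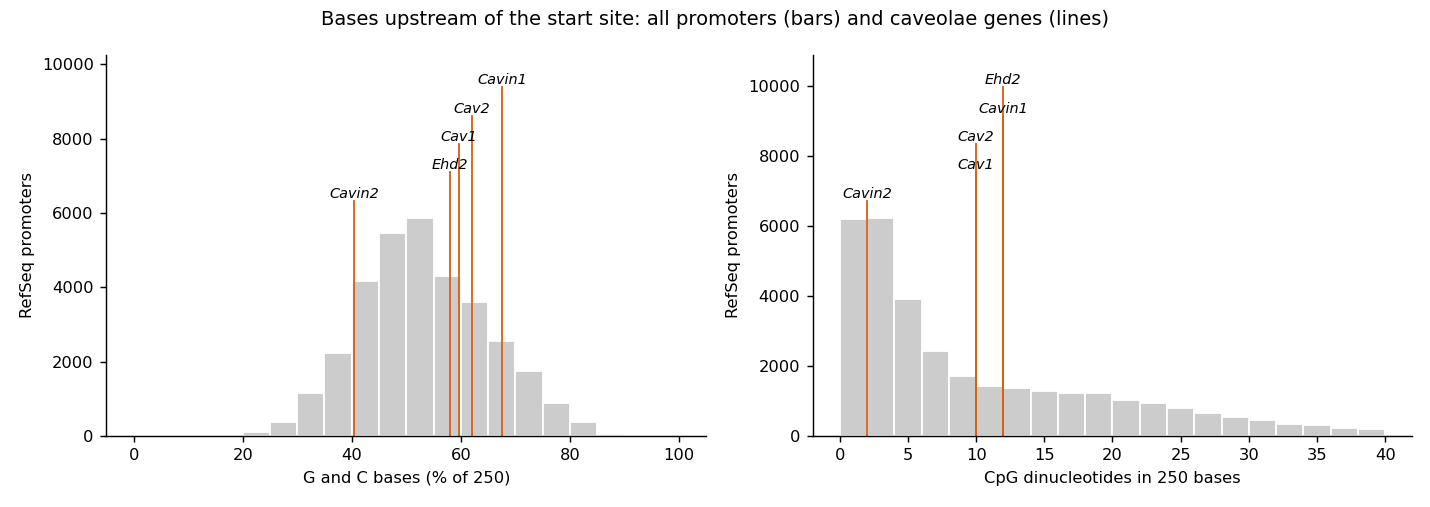
Share of G and C bases (left, percent of 250 bases) and number of CpG dinucleotides (right) upstream of the start site. Bars count RefSeq promoter entries (429 with 40 or more CpG are not drawn on the right), and lines mark 5 caveolae genes: Cavin2 lies at 40.4% and 2 CpG, the others at 58.0 to 67.6% and 10 to 12 CpG.

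C10 and SVEC single cells were compared with the quasi-likelihood test of edgeR on counts, fitted over 9303 genes with Benjamini-Hochberg adjustment, where 18.9% of genes were called in either direction and 14.4% higher in C10 (adjusted p under 0.05). The median log2 difference of all genes tested was 0.35 toward C10, and -0.0023 when libraries were scaled by their totals alone. Cavin1 was the caveolae gene called: its level was 216 ± 150 CPM in C10 (SD, n = 46) and 107 ± 123 CPM in SVEC (SD, n = 48), a log2 difference of 1.37 ± 0.41 (SE; edgeR adjusted p = 0.00877). The call was lost with library totals (0.99, adjusted p = 0.0770, beside the all-gene median of -0.0023) and with the share of genes detected as a covariate (1.23, adjusted p = 0.137), and over all alternatives its adjusted p ran from 1.27e-05 to 0.137. That share moves with the lines, since C10 libraries had a median of 6103 and SVEC libraries 4404 genes detected. With depth made equal by thinning to 100000 counts the Cavin1 difference was 1.06 (edgeR adjusted p = 0.0392), and in libraries of at least 100000 counts it was 1.44 (adjusted p = 0.00397), and both were called higher in C10.

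Cavin3 lay at 103 ± 80.4 CPM in C10 (SD, n = 46) and 110 ± 392 CPM in SVEC (SD, n = 48), and its log2 difference of 0.89 ± 0.45 (SE) did not pass (edgeR unadjusted p = 0.0488, adjusted p = 0.167). The edgeR result changed with a single SVEC library. Without SVEC library 20, the library of 18 Cavin3 counts in 6591, the difference was 1.29 ± 0.44 (SE) and the edgeR adjusted p was 0.0248, with Cavin3 higher in C10. This left-out library was chosen after its value was seen. Among libraries of at least 100000 counts the difference was 1.63 ± 0.44 (SE, edgeR adjusted p = 0.00300), and with library totals it was 0.11 (adjusted p = 0.926), the lowest and highest adjusted p of Cavin3 over the alternatives.

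Cav1 differed by 0.60 ± 0.43 on the log2 scale (SE, edgeR adjusted p = 0.380), Cav2 by 0.23 ± 0.66 (adjusted p = 0.875) and Ehd2 by 0.36 ± 0.78 (adjusted p = 0.821), each estimate toward C10 and none past the threshold. Their standard errors were too wide to show that the lines were alike. The sign of the Cav2 estimate turned with library totals (-0.12), and those of Cav2 and Ehd2 with the detection covariate. Cavin2 could not be tested. The median estimate over the 5 genes was 0.60, and their range was 0.23 to 1.37.

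Limma on log2(CPM + 1), where 31.1% of genes were called higher in C10, called Cav1 (1.94, adjusted p = 0.0218), Cavin1 (2.68, adjusted p = 1.27e-05) and Cavin3 (1.73, adjusted p = 0.00378). DESeq2, with 15.0% of genes called higher in C10, called Cavin1 (1.42, adjusted p = 0.000666) and Cavin3 (1.10, adjusted p = 0.0142). Cavin1 was thus called higher in C10 by all 3 tools, Cavin3 by 2 and Cav1 by 1, against a background of called genes that differed by tool. On the log2(CPM + 1) scale, libraries at 0 weigh more than in the count models, and SVEC had 12 libraries at 0 for Cav1, 12 for Cavin1 and 11 for Cavin3. Markers of another cell type moved with the same comparison. Of 5 fibroblast and smooth muscle genes tested, edgeR called 4 higher in C10 (Vim, Col1a1, S100a4 and Acta2), beside 14.4% of all genes. Type I genes went both ways, at unequal depth. Pdpn was read in 45 of 46 C10 and 22 of 48 SVEC libraries, Clic5 in 7 and 0, and Rtkn2 in 5 and 5. Hopx was read in 9 of each line, up to 0.80 CPM in C10 and 371 CPM in SVEC. Ager was read in 0 C10 libraries and 1 SVEC library (63.5 CPM). The part of these marker genes in the Cavin1 result was not tested.

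**Figure D3:**
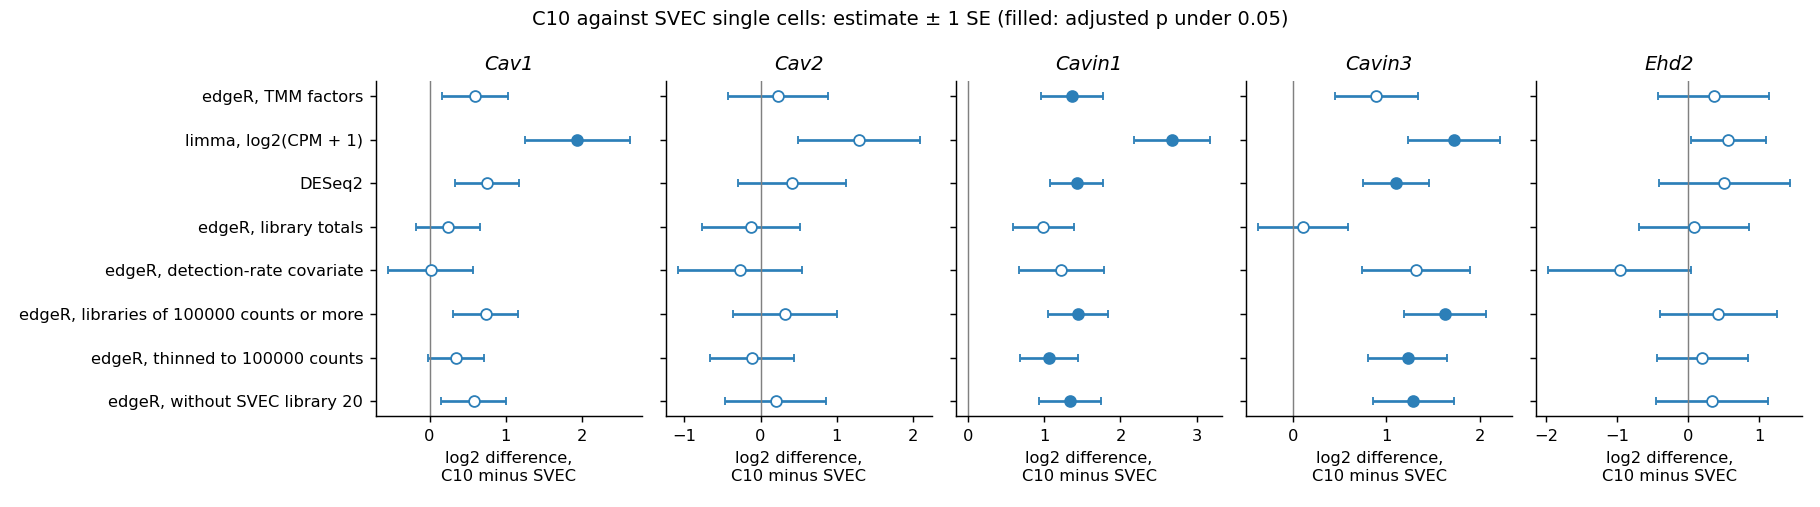
Log2 difference between C10 and SVEC single cells for each caveolae gene tested, by tool and setting; points are estimates, bars are 1 SE, filled points have adjusted p under 0.05, and positive values are toward C10. Cavin1 is positive in every setting drawn and open with library totals and with the detection covariate, and Cavin3 is filled once SVEC library 20 is left out.

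The input series was used to ask how the genes behaved as more C10 cells were pooled, and a pool cannot tell fewer expressing cells from less RNA per cell. Cav1 in the 8 libraries of 1 cell was 0, 1514, 1305, 1289, 872, 61.5, 0.147 and 170 CPM. In the 6 libraries of 3 cells it was 786, 1760, 548, 940, 746 and 543 CPM, and in the 6 of 10 cells it was 567, 1289, 627, 755, 851 and 1028 CPM. Single cells of the line ranged from none to above every 10-cell pool, and no pool was without Cav1. The coefficient of variation of Cav1 was 1.01, 0.51 and 0.32 at 1, 3 and 10 cells, on means of 651 ± 661, 887 ± 454 and 853 ± 270 CPM (SD, n = 8, 6 and 6). The 3-cell value rested on 3-cell library 2, the one at 1760 CPM, without which it was 0.24, so 3-cell and 10-cell pools were not ordered. Leaving out any one 1-cell library kept that group's coefficient between 0.88 and 1.17, above both kinds of pool.

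The library at 0.147 CPM, 1-cell library 13, held 2 Cav1 counts in a total of 13614523, while it held 105 CPM of Cavin1 and 67.7 CPM of Cavin3. The library at 0, 1-cell library 1, had the lowest total of the series (430798 counts on 538 genes) and no count of any caveolae gene. The first was deep and held the cavins, and the second held few genes of any kind.

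Cavin3 also ranged more widely at 1 cell than in pools: 0 to 333 CPM at 1 cell, 71.9 to 247 at 3 cells and 69.9 to 217 at 10 cells, with coefficients of variation of 1.14, 0.43 and 0.36. Cavin1 ran from 0 to 211, from 52.2 to 152 and from 37.6 to 120 CPM, with coefficients of 0.81, 0.44 and 0.47 (0.29 without 3-cell library 2 and 0.27 without 10-cell library 10). Cav2 kept a wide range at 10 cells. It ran from 0 to 591 CPM at 1 cell and from 166 to 461 CPM at 3 cells, and at 10 cells it was 86.4, 270, 0.0740, 75.5, 57.9 and 50.3 CPM, with coefficients of 1.14, 0.46 and 1.03 (0.62 at 10 cells without 10-cell library 2, the one at 270 CPM). The value of 0.0740 CPM, 10-cell library 5, was 1 count in a total of 13517538, in a pool that held 627 CPM of Cav1. Differences in spread between the groups were not tested.

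Ehd2 had counts in 1 of 8 libraries of 1 cell, 4 of 6 of 3 cells and 5 of 6 of 10 cells. The level did not follow the number of libraries with counts. Its highest values were 13.2, 92.0 and 18.0 CPM, and thinning to 100000 counts left it in 1, 3 and 1 libraries. In 4 of the 10-cell libraries it was thus seen only at full depth.

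**Figure D4:**
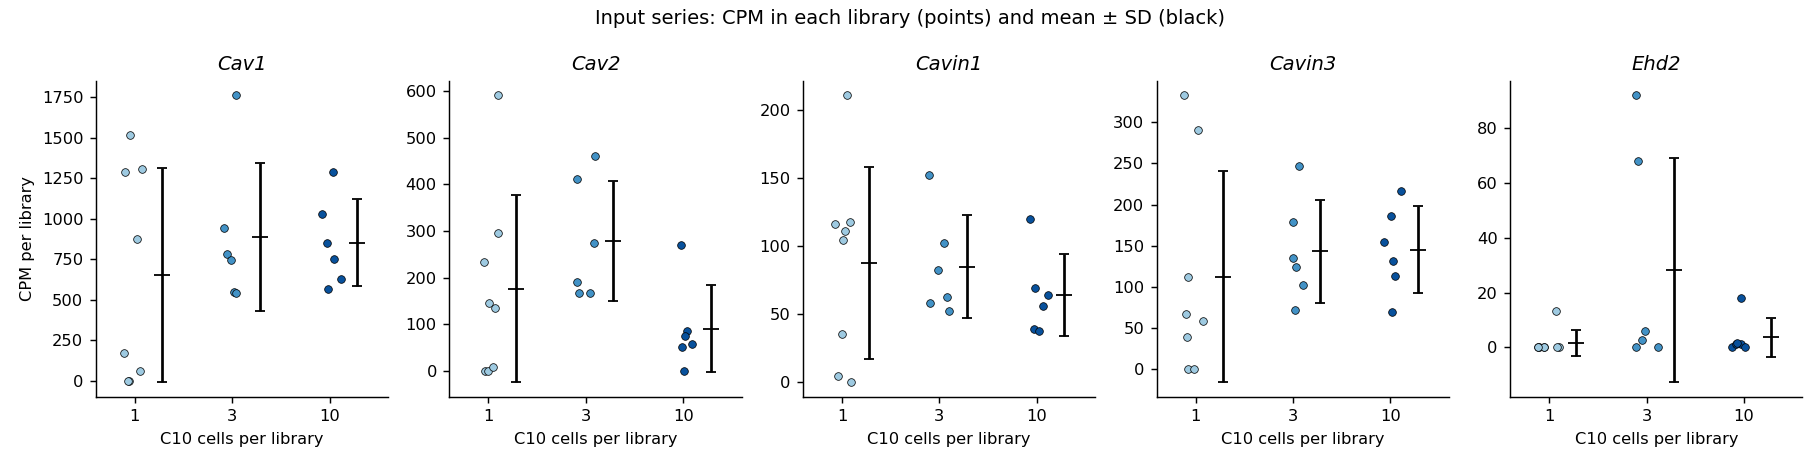
CPM of each caveolae gene with counts in C10 libraries of 1, 3 and 10 cells; points are libraries and black marks are mean ± SD (n = 8, 6 and 6), with vertical axes that differ between panels. Cav1 and Cavin3 lie closer together in pools than at 1 cell, while Cav2 at 10 cells holds 1 library at 270 and 1 at 0.0740 CPM.

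Between 10 cells and 1 cell, edgeR called none of the 5 caveolae genes tested, against 10.7% of 13645 genes, with none at an unadjusted p under 0.05. Limma called none, and DESeq2 called none, with 1 (Cavin1) at an unadjusted p under 0.05. The log2 differences were 0.07 ± 1.03 for Cav1, -1.18 ± 1.31 for Cav2, -0.87 ± 1.09 for Cavin1, 0.12 ± 1.13 for Cavin3 and 1.00 ± 2.03 for Ehd2 (SE; edgeR adjusted p = 0.891 to 0.999). Standard errors above 1 on the log2 scale leave room for changes of severalfold in either direction. Ehd2 turned on 1 library: without 1-cell library 6, the one 1-cell library with Ehd2 counts, it was called higher in 10 cells (adjusted p = 0.0353), a fit against a group wholly at 0 whose size is no estimate.

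The C10 single cells and the 1-cell libraries of the input series are the same line in 2 sets of libraries, and set and batch cannot be told apart. EdgeR called none of the 4 caveolae genes tested, against 8.63% of 8449 genes, and none had an unadjusted p under 0.05. The differences, single cells minus 1-cell libraries, were 0.36 ± 0.68 for Cav1, 0.23 ± 1.15 for Cav2 and -0.21 ± 0.70 for Cavin3 (SE, edgeR adjusted p = 0.861 to 0.960). Cavin1 came nearest, at 1.09 ± 0.56 (SE, edgeR unadjusted p = 0.0567, adjusted p = 0.261). Limma called it higher in the single cells (2.07, adjusted p = 0.00728), where 8.57% of genes were called in that direction, and DESeq2 put it at 0.0034 (adjusted p = 0.999). The tools thus differed for Cavin1. Leaving out each 1-cell library in turn moved its edgeR estimate between 0.48 and 1.21, with no adjusted p below 0.261.

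Relations among the caveolae genes across single cells are given as descriptions, over libraries of at least 100000 counts. Counts were not thinned, so depth and detection still differed between these libraries. Cav1 and Cav2 had a Pearson r of 0.43 in C10 (n = 45) and 0.45 in SVEC (n = 42) on log2(CPM + 1). Cav1 and Cavin1 had 0.41 in C10 and 0.22 in SVEC. The other pairs were weaker in C10, and in SVEC Cav2 and Ehd2 had 0.33 and Cav2 and Cavin3 0.28. Cav1 itself had an r of 0.36 in C10 and 0.25 in SVEC with log2 library total, so its values also went with depth. The pair with r above 0.4 in both lines was the pair that lies side by side on chromosome 6.

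**Figure D5:**
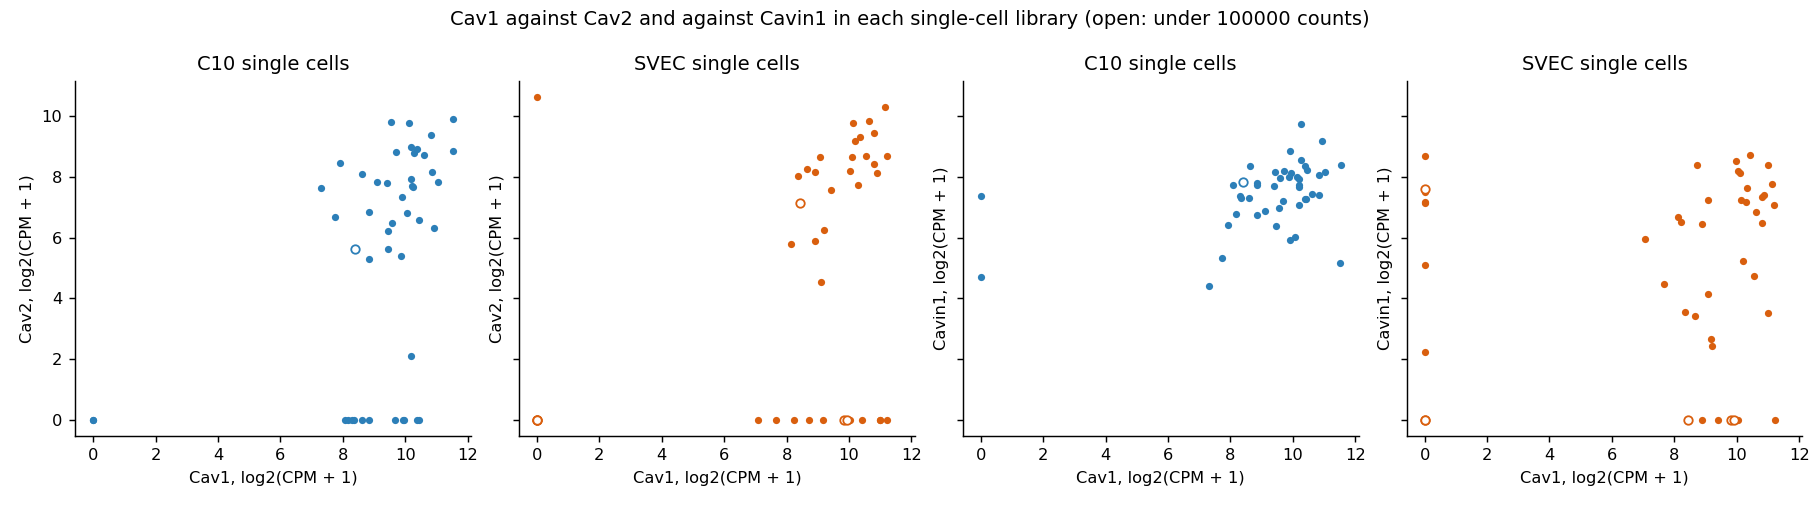
Cav1 against Cav2 (left pair) and against Cavin1 (right pair) in each single-cell library, as log2(CPM + 1); open points are libraries under 100000 counts, and points on an axis lacked a gene. Cav1 is lacking in only 2 C10 libraries and in 12 SVEC libraries. Of these, 0 in C10 and 1 in SVEC hold Cav2, and 2 in C10 and 7 in SVEC hold Cavin1.

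The genes whose pattern was most like the mean log2(CPM + 1) of the caveolae genes were Tpm3 (mean r over the lines 0.51), Rab7 (0.47), Snx2 (0.45) and P4ha2 (0.45), over 46 C10 and 48 SVEC libraries. They were among the 5 highest of 2943 genes read in at least 50% of libraries of both lines, whose median was 0.15. The caveolae mean had an r of 0.31 in C10 and 0.48 in SVEC with log2 library total, so depth was not held equal here either. Of the 5, 3 stayed among the top 5 in libraries of at least 100000 counts, and 3 with log2(CPM + 10), with Tpm3 first each time.

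Other genes of the caveolar pathway were read from 4 lists. Of 10 accessory and related proteins (such as dynamin-2, the pacsins, the other EHD proteins and filamin A), 6 were tested between C10 and SVEC and edgeR called none, with 1 at an unadjusted p under 0.05. The median log2 difference of the list was 0.16. Of 10 membrane proteins that sit in or signal through caveolae, 6 were tested and none called (2 at an unadjusted p under 0.05, median 0.45). For comparison, none of 7 flotillins and related proteins, which form other membrane domains, was called (0 unadjusted, median 0.08), and none of 9 clathrin and AP-2 genes, of the other main endocytic coat (2 unadjusted, median 0.49). The medians of the 4 lists lay between 0.08 and 0.49, beside 0.60 for the caveolae genes and 0.35 for all genes. The counts of 0 stand beside 18.9% of all genes called by edgeR. Limma called 2 of 6 accessory, 2 of 6 membrane, 1 of 7 flotillin-related and 4 of 9 clathrin genes higher in C10, beside 31.1% of all genes, and DESeq2 called 0, 1, 0 and 2, beside 15.0%. With so few genes in a list, these counts set no list apart from all genes.

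In the input series, edgeR called 4 list genes higher at 10 cells than at 1 cell. All 4 lacked counts in every 1-cell library and passed the detection filter only through pools, so a call had to be in this direction and is no support for a change of the lists. The background was 10.7% of all genes. Each fold sets the mean of the 10-cell pools over a floor of 3 counts per 1-cell library, on average 1.12 CPM. The folds leave out the spread between pools, so they are no bounds on a difference. Stom, for the SPFH protein stomatin, stood at 36.9-fold the floor (41.3 CPM in 6 of 6 pools, edgeR adjusted p = 0.0230). Tgfbr1, for the type I TGF-beta receptor, stood at 14.2-fold (16.0 CPM, 5 of 6 pools, adjusted p = 0.0275). Pacsin3, for a membrane-bending F-BAR protein, stood at 5.15-fold (5.78 CPM, 3 of 6 pools, adjusted p = 0.0321). Nos3, for endothelial nitric oxide synthase, stood at 1.74-fold (1.95 CPM, 5 of 6 pools, adjusted p = 0.0307). Limma called Stom and Tgfbr1 of these and not Nos3 or Pacsin3, DESeq2 did not call Pacsin3, and without 1-cell library 1 edgeR kept only Stom (adjusted p = 0.0442). None of them was called with the detection covariate, under which edgeR called 0 of all genes (1373 at an unadjusted p under 0.05), and with no filter the adjusted p of the 4 was 0.0514 to 0.0550. None of the 9 clathrin and AP-2 genes was called, with none at an unadjusted p under 0.05 in edgeR and none called by limma or DESeq2. Tgfbr2, for the type II TGF-beta receptor, was the 1 list gene called between the C10 sets: it was read in 33 of 46 single cells (median 16.5 CPM) and 1 of 8 1-cell libraries (2.93 CPM), with an edgeR adjusted p of 0.00806. Tgfbr2 passed the filter only through the single cells, which favoured a call in that direction. The call is thus no support for a difference between the sets.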

How the data were processed

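RNA of C10 and SVEC libraries was sequenced as single reads of 150 bases from full-length SMART-Seq v4 Plus cDNA, per the labels' protocols. The authors deposited raw read counts for 40202 gene symbols and 5 closing counters per library. The submitters' processing notes name FastQC, STAR and HTSeq. Their versions, the genome build, the annotation and the strand setting are not given in the sources used here. Counters stayed out of totals and tests, and held a median of 43.2% of reads in 1-cell libraries, beside 95.9% at most. Values were scaled to CPM by library totals. Libraries under 1000 counts (2 C10 single cells) were left out. No 2 deep libraries of a group held identical counts, and the nearest pairs differed by far more than sampling noise.

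Tests used edgeR 4.0.16 (quasi-likelihood, TMM factors) in R 4.3.3, with limma 3.58.1 on log2(CPM + 1) and DESeq2 1.42.0 (poscounts size factors) as alternatives. Each ran over all genes with counts in at least 25% (single cells) or 50% (the other comparisons) of a group's libraries, with Benjamini-Hochberg adjustment and a threshold of 0.05. The input series was fitted as 1 model of 3 groups. Other alternatives were library totals, no filter, a detection covariate, a replicate block, libraries of at least 100000 counts, thinning to 100000 counts, a 90% filter and leaving out each library. The fits were tested on simulated data.

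The members and the lists were chosen with earlier results of these data known. Beyond the 6 members, list genes were named by the smallest adjusted p, at most 3 per list and comparison, and the 5 most alike genes by the highest mean r, of which 1 is not reported here. Marker genes and list genes called by limma or DESeq2 alone are given as checks and counts. Phb1 had no match in the files. RefSeq names and promoter entries are of GRCm38.p6, and exon lengths are of GENCODE M21.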

Additional observations from a re-analysis of the deposited data

Results flagged for a closer look

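Of 15 groups of values tested (5 genes in the 3 input groups), 4 held a library whose gap to the nearest other, as a share of the range, was past the 95% critical value of Dixon's test. For normally distributed values, chance flags about 1 in 20 such groups, or 0.75 of 15. CPM values with libraries at or near 0 need not be so distributed, so the 4 flags cannot be judged against that number. Cav1 in 3-cell library 2 was 1760 CPM, with the other 5 between 543 and 940 CPM. Cav2 in 10-cell library 2 was 270.0 CPM, with the other 5 between 0.0740 and 86.4 CPM. Ehd2 in 1-cell library 6 was 13.2 CPM, with no count in the other 7. Its gap was thus the whole range, so the flag followed from 1 library alone holding counts. Ehd2 in 10-cell library 1 was 18.0 CPM, with the other 5 between 0 and 1.68 CPM. The totals of these libraries were 10485343, 12660736, 13963944 and 8313314 counts. No cause was tested.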

How the results depend on the processing

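Between C10 and SVEC, edgeR called 1754 genes and 1 caveolae gene. Limma called 3223 genes and 3 caveolae genes, and DESeq2 called 1689 genes and 2 caveolae genes. Library totals called 1590 genes and the detection covariate 1398, each with 0 caveolae genes. All of these fits tested 9303 genes. Calls numbered 5437 genes with no filter and 489 with the 90% filter. The 2 caveolae genes called were Cavin1 and Cavin3 in deep libraries, in thinned libraries and without SVEC library 20. Genes called in these 3 fits were 1958 of 9318, 1262 of 7224 and 1727 of 9302. The Cav2 difference reversed to -0.12 with library totals, -0.27 with the covariate and -0.11 when thinned, and that of Ehd2 to -0.96 with the covariate.

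Between 10 cells and 1 cell, calls fell from 1456 genes to 48 with no filter and 0 with the covariate. Leaving out a library gave 336 (without 1-cell library 1) to 2769 genes (without 1-cell library 10) and 0 to 1 caveolae genes. Reversed values were -0.96 (DESeq2) and -1.91 (covariate) for Cav1, 0.075 (limma) for Cav2, 0.56 (limma) for Cavin1, -0.95 (DESeq2) and -0.32 (covariate) for Cavin3 and -0.43 (covariate) for Ehd2. Leaving out a library moved Cav1 between -0.12 and 0.52, Cav2 between -1.67 and -0.54, Cavin1 between -1.06 and -0.48, Cavin3 between -0.069 and 0.59 and Ehd2 between -1.22 and 8.28.

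Between the C10 sets, edgeR called 729 genes, limma 1124 and 1 caveolae gene, and no filter 4365. Leaving out a library gave 619 to 1028 genes and 0 caveolae genes. Reversed values were -0.49 (DESeq2) for Cav1, -0.75 (DESeq2) and -0.24 (no filter) for Cav2 and 1.02 (limma) for Cavin3, and leaving out a library moved Cav1 between -0.13 and 0.50, Cav2 between -0.30 and 0.73, Cavin1 between 0.48 and 1.21 and Cavin3 between -0.78 and 0.087.

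Libraries with the same number did not deviate together (mean r 0.0034 over 46 pairs, -0.0036 over 6 and -0.0030 over 8). With a replicate block, calls were 3199, 0 and 74 genes (the 4 list genes named at 10 cells were thus not called) and 2, 0 and 0 caveolae genes in the 3 comparisons, with Cavin1 at 0.054 between 10 cells and 1 cell. Thinning left Ehd2 in 16.7% of 10-cell libraries, from 83.3%, and 3 of the 5 most alike genes stayed with deep libraries and 3 with log2(CPM + 10). The cause of these changes was not tested. Of 106 alternative values of single caveolae genes (leaving out input libraries aside), 80 kept direction and side of the threshold, 8 gained a call, 2 lost it and 16 reversed. Depth limits how often a gene is read: in SVEC, thinning took Cavin3 from 34 to 30, Cavin1 from 35 to 32 and Ehd2 from 13 to 12 of 42 libraries.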
